A study of Homo sapiens with 6 samples.

Results

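Ribosome production starts in the nucleolus, where RNA polymerase I (Pol I) copies the ribosomal RNA genes into a long precursor. Small nucleolar ribonucleoproteins (snoRNPs) guide the chemical modification of this precursor, and large sets of assembly factors cut, fold and package it into the small (40S) and large (60S) subunits. The transcription factor MYC is known for driving many of these genes in proliferating blood cells, and ribosome production is known to decline as erythroid cells mature. The 39 genes described here are MYC, the Pol I machinery and ribosome assembly factors. They were taken by gene symbol from the 16315 genes of the deposited table. All 39 were present, and all 39 passed the filter on low values, as did 13841 genes in all.

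The cells were F36P, a human leukaemia line that depends on cytokine and has features of red cell precursors. In 3 libraries the cells had been transduced with a guide RNA targeting HDAC7, which encodes a histone deacetylase of class IIa, and are labelled as an HDAC7 knockout (sgHDAC7). In the other 3 they had received a non-targeting guide and are labelled wild type (sgNT). Both plasmids carried puromycin resistance, and both groups were selected in 1 µg/ml puromycin for 4 days before poly-A RNA sequencing, which used an equal number of cells for each library. The labels call the libraries biological replicates without saying whether the cultures were grown apart, and do not say whether the cells were clonal or pooled. If they were not grown apart, p-values measure only the spread between these samples. The one comparison of the series sets the HDAC7 guide against the non-targeting guide.

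Library totals ran from 11645003 to 12521195 counts in sgHDAC7 and from 10039693 to 11149179 counts in sgNT. The targeted gene HDAC7 stood at 194, 239 and 246 CPM (read counts scaled to library size, with TMM factors) in sgHDAC7, against 450, 460 and 462 CPM in sgNT. The groups did not overlap, and the log2 fold change was -1.02 ± 0.09 (SE, edgeR quasi-likelihood adjusted p = 0.00139). All 11 erythroid and F36P marker genes listed were detected, among them GATA1 at 198 to 246 CPM over the 6 libraries. Of the lymphoid markers, CD79A was present at 12.3 to 18.7 CPM. Of the 6 stromal, endothelial and epithelial markers, 4 were in the table: PECAM1, which blood cells also express, stood at 28.6 to 73.5 CPM and the other 3 at no more than 2.76 CPM. The sgNT replicate 1 library stood apart in many of the values that follow, so the members' calls on replicates 2 and 3 alone are also given.

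Between the guides, 1 of the 39 ribosome production genes passed the test. UBTF, which bends and activates ribosomal RNA gene chromatin for Pol I, rose 1.24-fold in sgHDAC7. No member was called lower in this test. A count of 1 gene is 2.56% of the members, against 2.86% of all 13841 genes tested that were called in either direction by the same fit (edgeR adjusted p under 0.05 with group as the only term, 1.16% higher and 1.70% lower). The 38 genes that did not pass had log2 fold changes between -0.31 and 0.38. The median over the 39 was 0.09, against 0.00 over all genes tested (-0.0016 before rounding), and 27 of the 39 had a positive value, against 49.7% of all genes. Standard errors ran from 0.06 to 0.19 with a median of 0.09. In bulk RNA, a change in the share of cells of one kind and a change in RNA per cell cannot be told apart.

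**Figure D1:**
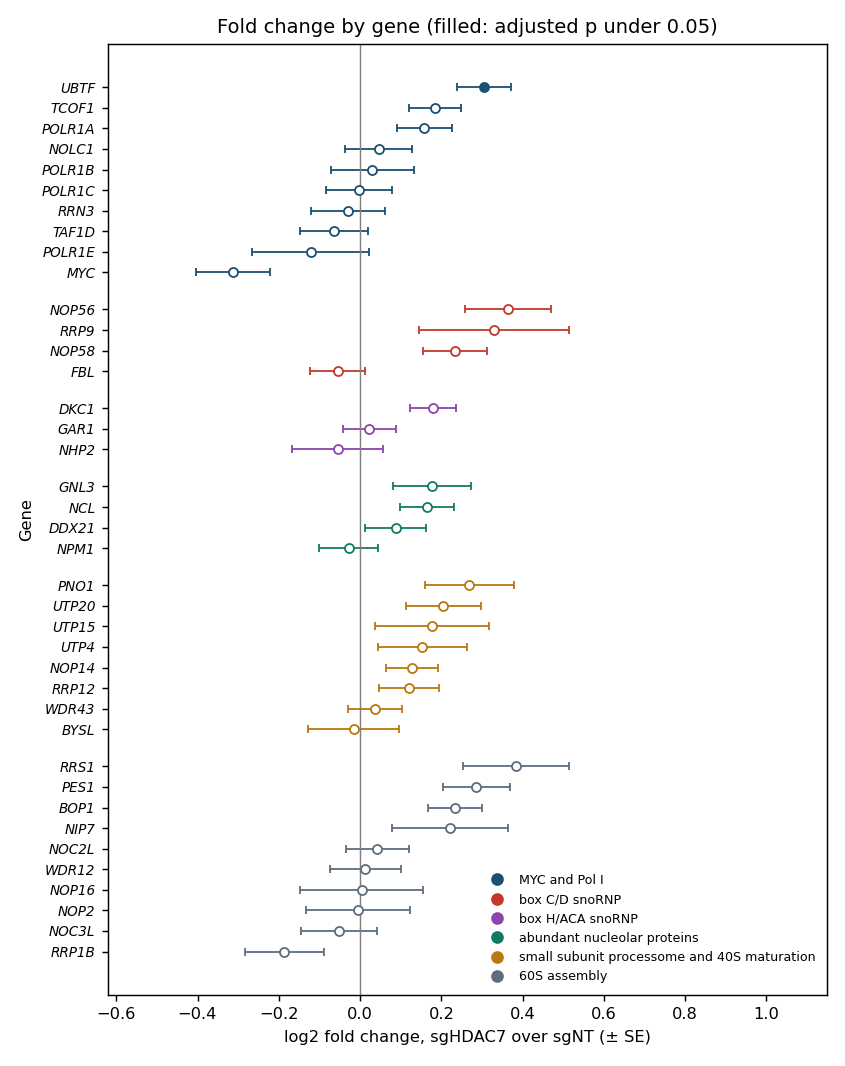
Log2 fold change of sgHDAC7 over sgNT for each of the 39 genes, with standard errors, ordered within 6 groups of related function. The single filled point is UBTF, which passed the edgeR test; MYC lies lowest at -0.31 and RRS1 highest at 0.38.

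A second description uses the order of the libraries alone. In 14 of the 39 genes the sgHDAC7 and sgNT libraries did not overlap (35.9%, against 25.1% of all genes tested). In 12 of these, or 30.8% of members, every sgHDAC7 library lay above every sgNT library, against 13.0% of all genes tested. In the other 2, MYC and RRP1B, every sgHDAC7 library lay below, which is 5.13% of members against 12.2% of all genes tested. The 12 higher genes were spread over all 6 functional groups.

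MYC had the lowest fold change of the set, opposite in sign to 27 of the 39 values. It had 645, 774 and 754 CPM in sgHDAC7, against 804, 933 and 962 CPM in sgNT. The groups did not overlap, and within each guide replicate 1 was the lowest library. The log2 fold change was -0.31 ± 0.09 and did not pass (edgeR adjusted p = 0.102, exact two-sided permutation p = 0.1, the smallest that 3 against 3 libraries allow). A term for replicate 1 in the fit left the estimate at -0.31 and brought it past the threshold (edgeR adjusted p = 0.00185). The guide difference was of similar size in both parts of the data, at log2 -0.32 in replicate 1 and -0.31 ± 0.05 on replicates 2 and 3. Per kilobase of annotated exon, MYC had the highest level of the 39 genes in sgNT, at 300 CPM per kilobase, and stood at 241 in sgHDAC7, where NCL at 288 was above it.

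The hexanucleotide CACGTG, the E-box that MYC binds with its partner MAX, was looked up on both strands, where it reads the same, in the 250 bases before each start in RefSeq's promoter table (GRCh38.p14). Of the 30 members found in that table, 3 held it (10%), against 11% of the 11125 genes of the count table that were found there and 7.73% of all 27305 genes of the promoter table. A match is a description and does not show binding. The 3 stretches are shown here, 5′ to 3′ on the plus strand, because they are the members where the motif stands in this window, with the motif in capitals. That of DDX21 is chr10:68956604-68956633, that of UTP20 chr12:101280083-101280104 and that of UTP4 chr16:69132621-69132648. The windows of DDX21 and UTP4 overlap exons that GENCODE 29 annotates to the same genes, since these genes have starts further upstream there.
DDX21: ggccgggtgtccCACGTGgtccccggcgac
UTP20: cttttttccgtcCACGTGaccc
UTP4: agagcgcgcgcgCACGTGgggccggggc
The motif starts 31, 10 and 16 bases before the RefSeq starts of DDX21, UTP20 and UTP4. None of the 3 genes passed the test, and their log2 fold changes were 0.09 ± 0.08, 0.21 ± 0.09 and 0.15 ± 0.11.

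UBTF had 228, 251 and 253 CPM in sgHDAC7 and 190, 202 and 201 CPM in sgNT, with no overlap. Its log2 fold change was 0.30 ± 0.07 (edgeR adjusted p = 0.0455, exact two-sided permutation p = 0.1, the same as for MYC). The call lay close to the threshold. It was lost on leaving out any library except sgNT replicate 1, with adjusted p between 0.05 and 0.205, and also when counts were scaled by library totals alone (adjusted p = 0.0513). The direction held in each of these fits. Like MYC, UBTF differed by similar amounts in replicate 1 (log2 ratio 0.26) and in replicates 2 and 3 (0.32 ± 0.05).

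**Figure D2:**
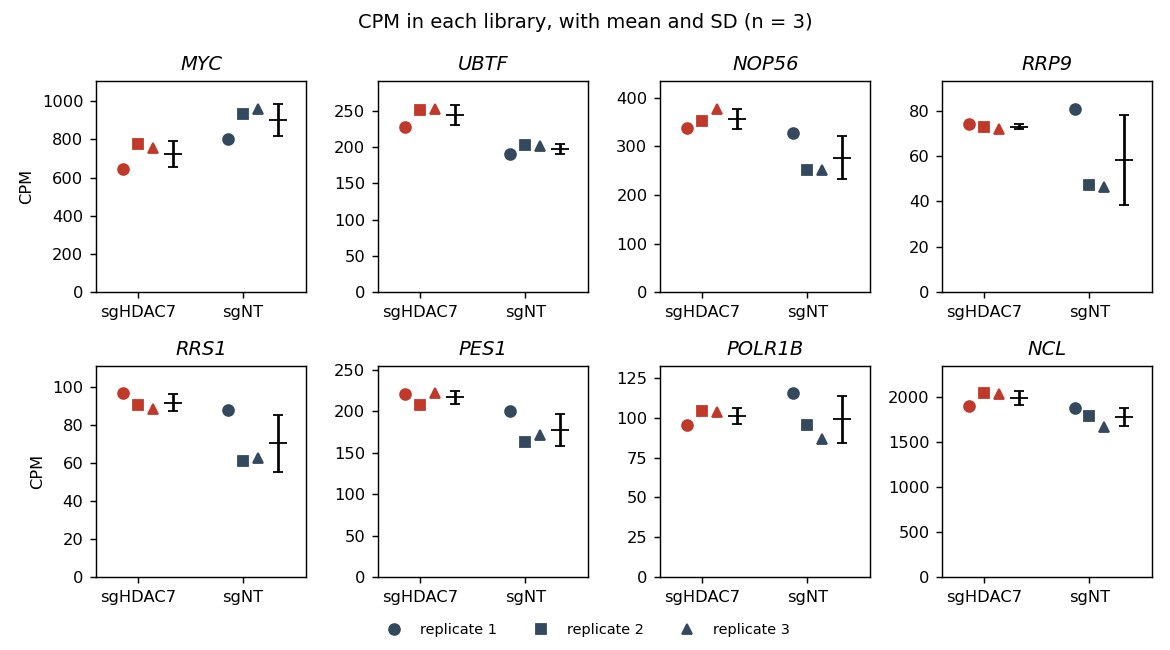
CPM of 8 of the genes in each library, sgHDAC7 left and sgNT right, with the replicate shown by the symbol and the mean and SD of 3 libraries as a bar. MYC and UBTF separate the guides in all replicates, while RRP9 and POLR1B have their highest value in sgNT replicate 1.

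The other Pol I genes included the core subunits. POLR1A, the largest catalytic subunit, had 228, 249 and 237 CPM in sgHDAC7 and 228, 204 and 208 CPM in sgNT (a difference of 0.16 ± 0.07 on the log2 scale, edgeR adjusted p = 0.243). The lowest sgHDAC7 library and the highest sgNT library, both replicate 1, were almost level. POLR1B, the second largest subunit, had 95.6, 104 and 103 CPM in sgHDAC7 and 115, 95.2 and 86.5 CPM in sgNT, so that its groups overlapped through sgNT replicate 1. Its log2 fold change was 0.03 ± 0.10 over all libraries, 0.15 without sgNT replicate 1 (not past the threshold) and 0.19 ± 0.07 on replicates 2 and 3 alone (edgeR adjusted p = 0.0390). POLR1C, which Pol I shares with RNA polymerase III, averaged 46.1 ± 2.19 CPM in sgHDAC7 and 46.2 ± 2.11 CPM in sgNT (SD, n = 3 each). POLR1E, a subunit of the Pol I elongation module, averaged 22.7 ± 1.64 CPM in sgHDAC7 and 24.7 ± 4.65 CPM in sgNT.

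Apart from UBTF, the initiation factors among the members showed no call. RRN3, which links Pol I to its promoter and is controlled by growth signals, had log2 -0.03 ± 0.09, and TAF1D, a subunit of the promoter selectivity complex SL1, had -0.06 ± 0.08. RRN3 has 3 annotated pseudogenes in the table, whose counts came to 13.9% to 18.1% of its own. The nucleolar phosphoproteins TCOF1 (treacle) and NOLC1, which tie Pol I transcription to rRNA modification, had 0.18 ± 0.06 and 0.05 ± 0.08. TCOF1 was higher in each sgHDAC7 library, at 120 to 127 CPM against 104 to 112 CPM in sgNT, and did not pass (edgeR adjusted p = 0.157). Summed over the 10 genes of MYC and Pol I, the level was 1985, 2190 and 2174 CPM in sgHDAC7 and 2208, 2184 and 2204 CPM in sgNT, a sum in which MYC holds the largest part.

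The box C/D snoRNP proteins, which carry the guide RNAs for 2′-O-methylation, had the highest median of the 6 groups, at log2 0.28 over 4 genes. NOP56, a scaffold protein of these particles, had 337, 352 and 378 CPM in sgHDAC7 and 328, 251 and 251 CPM in sgNT. Its groups did not overlap, although sgNT replicate 1 reached almost to the lowest sgHDAC7 library. The log2 fold change was 0.36 ± 0.10 (edgeR adjusted p = 0.097), and it passed with the replicate 1 term (0.37, edgeR adjusted p = 0.0138). That term takes replicate 1 to shift both guides alike, which the NOP56 values did not show. Replicate 1 was at 1.30 times the mean of replicates 2 and 3 in sgNT and at 0.92 times in sgHDAC7. NOP58, the partner scaffold, had 226, 219 and 242 CPM in sgHDAC7 and 207, 202 and 175 CPM in sgNT (a difference of 0.23 ± 0.08 on the log2 scale, edgeR adjusted p = 0.147, or 0.0448 once replicate 1 has its own term).

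FBL, the methyltransferase fibrillarin, did not follow its partners. It averaged 299 ± 8.13 CPM in sgHDAC7 and 311 ± 20.5 CPM in sgNT (a difference of -0.06 ± 0.07 on the log2 scale). RRP9, a protein specific to the U3 snoRNP, had 74.0, 72.9 and 72.1 CPM in sgHDAC7 and 80.9, 47.1 and 46.5 CPM in sgNT. Within sgNT, replicate 1 was at 1.73 times the mean of the other two, whereas the sgHDAC7 libraries lay within 1.03-fold of each other. Exons of NOP56 overlap 3 snoRNA genes of the table, so part of its counts could be shared with them. The same holds for TAF1D, whose exons overlap same-strand snoRNA and microRNA genes by 946 bases, and for GNL3 with SNORD19B (84 bases).

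The box H/ACA snoRNP proteins, which carry the guides for pseudouridylation, were nearly level except DKC1. DKC1, the pseudouridine synthase dyskerin, had 305, 309 and 314 CPM in sgHDAC7 and 276, 278 and 266 CPM in sgNT. The groups were well apart relative to their spread (SD 4.59 CPM in sgHDAC7 and 6.24 CPM in sgNT), and differed by 0.18 ± 0.06 on the log2 scale (edgeR adjusted p = 0.127, or 0.0412 once replicate 1 has its own term). GAR1 had log2 0.02 ± 0.07 and NHP2 -0.06 ± 0.11. NHP2 exons overlap the opposite-strand gene RMND5B, and the use of strand in counting is not given in the sources used here.

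Among the abundant nucleolar proteins, NCL (nucleolin) was counted most. It had 1902, 2047 and 2038 CPM in sgHDAC7 and 1878, 1791 and 1672 CPM in sgNT (a difference of 0.16 ± 0.07 on the log2 scale, edgeR adjusted p = 0.215), with no overlap but only a narrow gap between the replicate 1 libraries. GNL3 (nucleostemin, a nucleolar GTPase of stem and tumour cells) averaged 207 ± 2.75 CPM in sgHDAC7 and 183 ± 26.4 CPM in sgNT. DDX21, an RNA helicase, averaged 478 ± 8.79 CPM in sgHDAC7 and 450 ± 43.2 CPM in sgNT. Both had their highest value in sgNT replicate 1.

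The values of NPM1 (nucleophosmin, a histone and ribosome chaperone often mutated in myeloid leukaemia) are uncertain. Its own row stood at 441, 451 and 468 CPM in sgHDAC7 and 506, 452 and 428 CPM in sgNT (a difference of -0.03 ± 0.07 on the log2 scale). The table also holds 13 rows of annotated NPM1 pseudogenes, near copies without introns. Together these took 191% to 201% of the NPM1 counts in sgHDAC7 and 159% to 183% in sgNT, and NPM1P27 alone held 78.0% of them. Added together, NPM1 and its pseudogenes came to 1283, 1334 and 1411 CPM in sgHDAC7 and 1310, 1280 and 1204 CPM in sgNT. Most reads of this sequence family were thus assigned outside the NPM1 row, and the sum overlapped between the guides as the NPM1 row did.

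**Figure D3:**
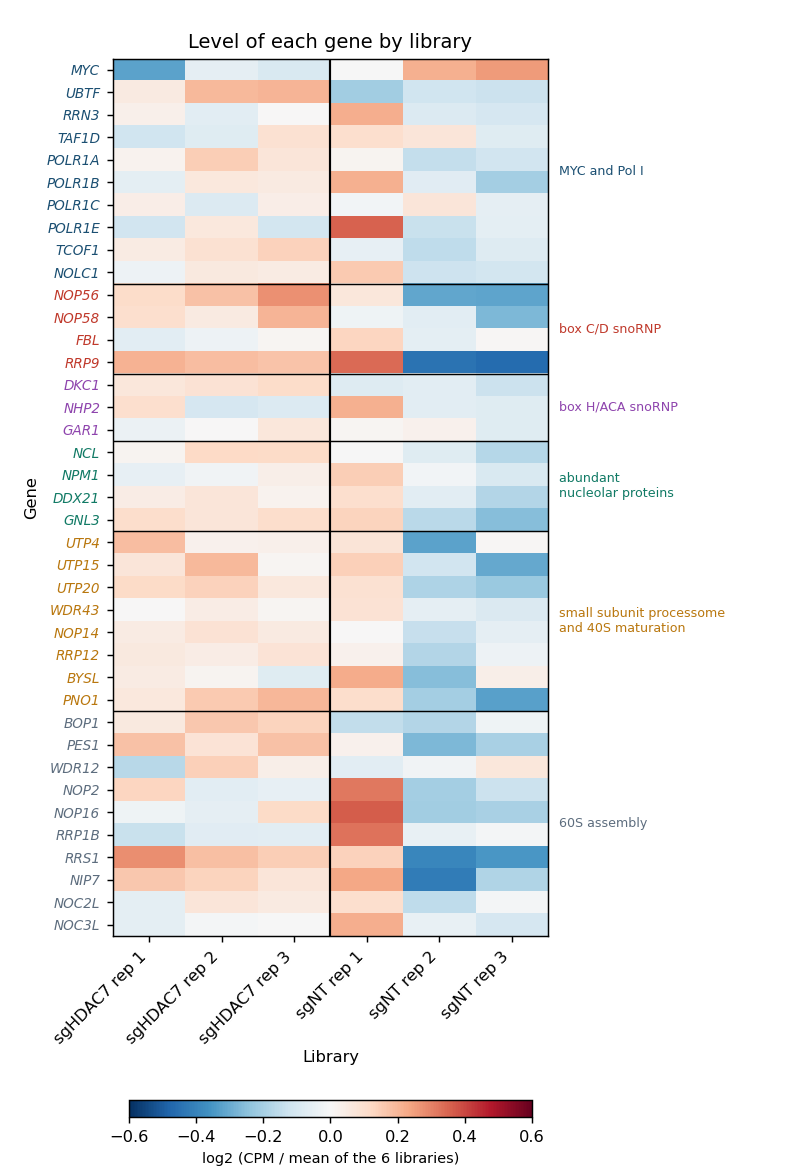
Level of each gene in each library as log2 of CPM over the mean of the 6 libraries, sgHDAC7 left of the line and sgNT right, with genes grouped by function. The sgNT replicate 1 column is red for most genes below MYC and UBTF, while most cells of sgNT replicates 2 and 3 are blue.

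Small subunit factors, which cut and fold the 5′ part of the precursor, held 8 members and no call. Their median log2 fold change was 0.14, and 7 of the 8 values were positive. PNO1, which protects the site of the last 18S rRNA cut, had 63.7, 68.1 and 69.9 CPM in sgHDAC7 and 65.7, 53.0 and 48.7 CPM in sgNT (a difference of 0.27 ± 0.11 on the log2 scale, edgeR adjusted p = 0.218). UTP20, a large scaffold of the processome, had 71.3, 72.4 and 68.9 CPM in sgHDAC7 and 70.1, 58.0 and 56.4 CPM in sgNT (a difference of 0.21 ± 0.09 on the log2 scale). For both, sgNT replicate 1 lay among the sgHDAC7 libraries.

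UTP4, UTP15 and WDR43 belong to the early module that binds the nascent precursor, and had log2 0.15 ± 0.11, 0.18 ± 0.14 and 0.04 ± 0.07. NOP14 and RRP12, a processome component and an export factor, were higher in every sgHDAC7 library by small amounts, with log2 0.13 ± 0.06 and 0.12 ± 0.07. BYSL (bystin) had log2 -0.02 ± 0.11. UTP15 was the member with the fewest counts, down to 152 in a library, and also the lowest per kilobase of exon, with 3.02 CPM in the sgHDAC7 mean and 2.68 CPM in the sgNT mean.

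The 60S assembly factors held 10 members and no call, with log2 fold changes from -0.19 to 0.38 and a median of 0.03. PES1, BOP1 and WDR12 form one complex (PeBoW) needed for processing of the large subunit rRNA. PES1 had 221, 208 and 222 CPM in sgHDAC7 and 200, 163 and 171 CPM in sgNT (a difference of 0.29 ± 0.08 on the log2 scale, edgeR adjusted p = 0.0988). BOP1 had 327, 352 and 345 CPM in sgHDAC7 and 284, 279 and 309 CPM in sgNT (a difference of 0.23 ± 0.07 on the log2 scale, edgeR adjusted p = 0.0919). Both sets of libraries were apart, and both genes passed with the replicate 1 term (edgeR adjusted p = 0.0101 and 0.0181). WDR12, the third subunit, averaged 105 ± 11.4 CPM in sgHDAC7 and 104 ± 4.78 CPM in sgNT (a difference of 0.01 ± 0.09 on the log2 scale).

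RRS1, which helps to load the 5S ribonucleoprotein, had the highest fold change of the 39 genes. It had 96.8, 90.4 and 88.3 CPM in sgHDAC7 and 87.9, 60.9 and 62.6 CPM in sgNT, so that sgNT replicate 1 lay just under the lowest sgHDAC7 library. The log2 fold change was 0.38 ± 0.13 (edgeR adjusted p = 0.146, or 0.00754 once replicate 1 has its own term). RRP1B, a nucleolar protein of the 60S pathway, was the other gene besides MYC with all sgHDAC7 libraries lower, at 148 to 156 CPM against 158 to 204 CPM in sgNT. Its log2 fold change was -0.19 ± 0.10 (edgeR adjusted p = 0.334), of which replicate 1 gave -0.46 and replicates 2 and 3 gave -0.04 ± 0.06.

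NIP7, NOC2L and NOC3L, factors of early and nuclear 60S particles, had log2 0.22 ± 0.14, 0.04 ± 0.08 and -0.05 ± 0.09. NOP2, a methyltransferase of 28S rRNA, and NOP16 both had 0.00 after rounding (SE 0.13 and 0.15). NOP2 averaged 122 ± 9.19 CPM in sgHDAC7, against 122 ± 24.7 CPM in sgNT. NOP16 averaged 36.9 ± 2.30 CPM in sgHDAC7, against 36.8 ± 8.75 CPM in sgNT. Exons of 10 members, among them NIP7, NOP14, NOP16, PES1 and UTP15, overlap genes on the opposite strand that are also in the table.

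For most of these genes the sgNT libraries were spread more widely than the sgHDAC7 libraries. The ratio of the highest to the lowest library had a median of 1.08 within sgHDAC7 and of 1.21 within sgNT. Over all genes these medians were 1.18 within sgHDAC7 and 1.22 within sgNT, so that the members' spread was below that of all genes in sgHDAC7 and close to it in sgNT. This comparison was not matched for level: all genes reach down to a mean of 1 CPM, where counting error adds to the ratio. The spread was wider in sgNT for 34 of the 39 genes (87.2%, against 59.2% of all genes tested). The sgNT replicate 1 library lay above both other sgNT libraries in 32 genes (82.1%, against 41.0% of all genes), and it was the highest of all 6 libraries in 19 (48.7%, against 22.0%). In sgHDAC7, replicate 1 was the highest of its group in 10 of the 39 genes, against 5012 of the 13839 genes tested that were above 0 in every library. The largest step was that of RRP9, followed by NOP16 (1.48 times the mean of sgNT replicates 2 and 3), NIP7 (1.44) and RRS1 (1.42).

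Summed over the 39 genes, the level was 8510, 8936 and 8965 CPM in sgHDAC7 and 8863, 8089 and 8000 CPM in sgNT. The sgNT replicate 1 library thus lay within the sgHDAC7 range. It also had the lowest total of the 6 libraries (10039693 counts) and the highest PECAM1 (73.5 CPM). Its summed level of the erythroid and F36P markers was the lowest, at 11136 CPM, of which HBG2 alone held 5658 CPM. The other sgNT libraries had 16176 and 15698 CPM. Within sgHDAC7, replicate 1 likewise had the lowest marker sum (15645 CPM, against 18685 and 21449 CPM). It also had the highest PECAM1 of that group (48.2 CPM, against 28.6 and 30.2 CPM). The marker and PECAM1 shifts were thus not particular to sgNT. The part of these values in the result was not tested.

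When the fit was made on replicates 2 and 3 alone, 19 members were higher and 1, MYC, was lower in sgHDAC7. This is 48.7% of members higher, against 9.72% of all genes tested, and 2.56% lower, against 10.9%. The fit leaves out sgNT replicate 1, which lay above both other sgNT libraries in 32 of the 39 genes. Larger differences between the guides in those genes follow in part from this choice, so these counts give no independent support for them. Of the 39 genes, 35 had a positive log2 fold change there, with a median of 0.17 against 0.00 over all genes. The largest were RRP9 at 0.63 ± 0.08 (edgeR adjusted p = 8.49e-07), NOP56 at 0.54 ± 0.05 (2.56e-08), RRS1 at 0.53 ± 0.07 (2.85e-06) and PNO1 at 0.44 ± 0.08 (0.000175). NIP7 followed at 0.40 ± 0.09 (0.00211) and PES1 at 0.36 ± 0.06 (3.11e-05). UBTF, UTP20, GNL3, NOP58, BOP1, NCL, POLR1A, TCOF1 and DKC1 lay between 0.20 and 0.32, and POLR1B, NOLC1, NOP14 and DDX21 between 0.16 and 0.19. Against the fit with all libraries, the estimates of POLR1B, NOLC1, DDX21, RRP9, GNL3, PNO1 and NIP7 were over 1.5 times as large. Erythroid markers also differed in this fit, with 4 of 11 higher and 2 lower. HBA1 was at 0.52 ± 0.05 (edgeR adjusted p = 6.84e-08), HBG2 at 0.41 ± 0.06 (1.82e-05) and the cytokine receptor gene CSF2RA at -1.19 ± 0.11 (1.09e-08), which also passed with all libraries and group alone (-0.90 ± 0.19, 0.0399). Their part in the members' result was not tested. Between the replicate 1 libraries, by contrast, 24 of the 39 log2 ratios were negative (61.5%, against 50.9% of all genes) and the median was -0.07 (all genes, -0.0047), a comparison of 1 library with 1 that has no replicate check.

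Replicates 2 and 3 of one guide lay close together, and this bears on every p-value from that fit. The chi-square per degree of freedom between their counts was 3.24 in sgHDAC7 and 3.53 in sgNT, against 7.91 to 15.6 for pairs with replicate 1. With a term for replicate 1 and all 6 libraries, 7 members were higher (17.9%, against 5.78% of all genes tested) and MYC was lower (2.56%, against 6.81%). The 7 were UBTF, NOP56, NOP58, DKC1, BOP1, PES1 and RRS1. The term takes replicate 1 to shift both guides alike, which did not hold over the members. The log2 ratio of replicate 1 to replicates 2 and 3 had a median of 0.23 in sgNT and of -0.05 in sgHDAC7. Adjusted p from this term, also those given gene by gene above, thus rest on an assumption that many members did not meet. Without sgNT replicate 1 in the fit with group alone, 10 members were higher and MYC was lower, against 5.29% and 6.18% of all genes tested. Leaving that library out raises the differences of genes in which it was high, as in the fit on replicates 2 and 3.

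**Figure D4:**
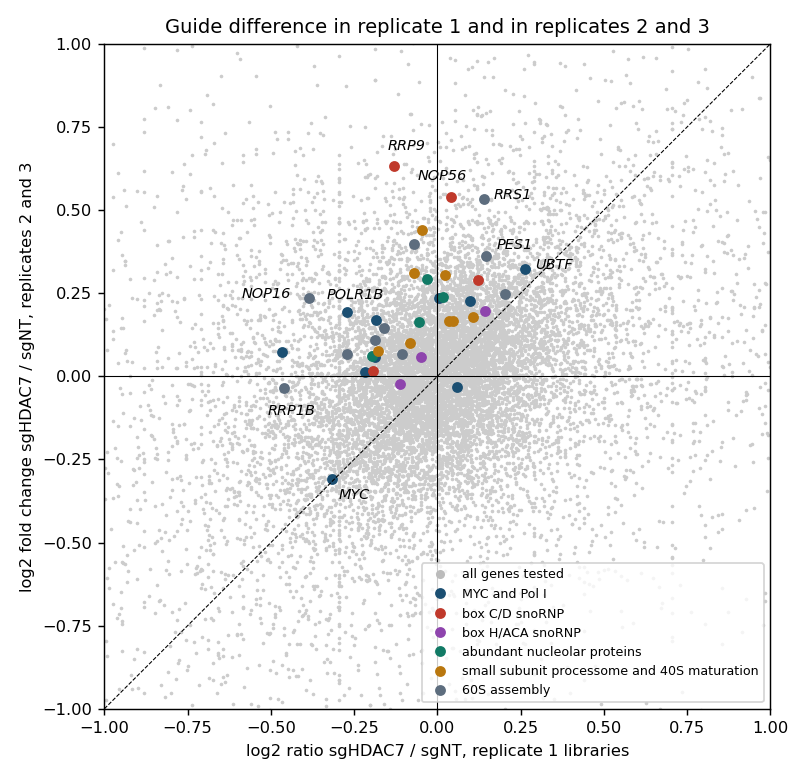
Log2 ratio of sgHDAC7 over sgNT between the replicate 1 libraries (horizontal) and log2 fold change between replicates 2 and 3 (vertical), for the 39 genes in colour and all genes tested in grey, with both axes limited to -1 to 1. The dashed line marks equal values, on which MYC lies; 21 of the 39 genes fall in the upper left part, negative in replicate 1 and positive in replicates 2 and 3.

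Whether the guide difference itself differed between replicate 1 and the others was tested with an interaction term. Of the 39 genes, 38 had a negative interaction (97.4%, against 50.7% of all genes), meaning a lower sgHDAC7 to sgNT ratio in replicate 1. The exception was POLR1C. The interaction passed in 7 members (17.9%, against 4.62% of all genes tested), all negative (against 1.55% of all genes tested with a negative call and 3.07% with a positive one): RRP9, NOP56, NOP16, PNO1, POLR1B, RRP1B and NOLC1. RRP9 had the largest, at -0.76 ± 0.13 (edgeR adjusted p = 0.000382), made of a log2 ratio of -0.13 in replicate 1 and 0.63 in replicates 2 and 3. NOP16 followed with -0.62 ± 0.17 (edgeR adjusted p = 0.0283) and NOP56 with -0.50 ± 0.09 (edgeR adjusted p = 0.00128), and NOLC1 was the smallest of the 7 with -0.35 ± 0.09 (edgeR adjusted p = 0.0181). MYC and UBTF had interactions of -0.01 ± 0.09 and -0.06 ± 0.09, neither of which passed. DESeq2 called the interaction in 2 of the 39 genes, RRP9 and NOP56, against 1.63% of all genes with a DESeq2 adjusted p. Replicate 1 holds 1 library per guide, so the error of this term comes only from replicates 2 and 3, which lay close together, with 2 residual degrees of freedom. The count over the members was added after the high level of sgNT replicate 1 had been seen. It describes that level again and gives no independent support for it.

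The members were then set beside 9 lists of other genes of these pathways, 210 tested genes in all. With group alone 2 of the 210 passed (0.952%, against 2.86% of all genes tested). RRP7A, a small subunit processome protein, had 170, 154 and 167 CPM in sgHDAC7 and 138, 113 and 128 CPM in sgNT (a difference of 0.37 ± 0.08 on the log2 scale, edgeR adjusted p = 0.0493). RSL24D1, a 60S assembly factor that holds the place of a ribosomal protein, had 94.1, 87.5 and 103 CPM in sgHDAC7 and 121, 177 and 159 CPM in sgNT (a difference of -0.69 ± 0.13 on the log2 scale, edgeR adjusted p = 0.0287). Both have pseudogene copies, so their counts are uncertain. Neither call held on leaving out any one library other than sgNT replicate 1, and without that library 15 of the 47 genes of the small subunit list and 11 of the 51 of the 60S list passed, against 11.5% of all genes tested. The RRP7A call was also lost with limma, with RLE scaling (relative log expression) in edgeR and with library totals alone.

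Other ribosome assembly factors had values of similar size to the members. The 47 further small subunit factors had a median log2 fold change of 0.11 and the 51 further 60S factors one of 0.09. On replicates 2 and 3 alone, 20 and 21 of them were higher, against 9.72% of all genes tested, 0 and 2 were lower, against 10.9%, and the medians were 0.17 and 0.18. Between the replicate 1 libraries their medians were -0.05 and -0.07. The interaction passed with a negative sign in 5 and 8 of them, against 1.55% of all genes tested, and with a positive sign in 0 and 1, against 3.07%. The limits given above for the fit on replicates 2 and 3 and for the interaction hold here too. The lists were compared by these counts and medians alone, with no test between them.

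The remaining lists had medians between -0.05 and 0.07. Other Pol I subunits and initiation factors had a median of -0.05 over 16 genes, 6 of them positive. On replicates 2 and 3 alone 1 of these was higher and 2 were lower. The RNA exosome, which trims rRNA ends, had a median of -0.04 over 14 genes, and other snoRNP proteins and their assembly factors 0.03 over 11 genes. Pol III genes stood at 0.07 over 22 genes, and snoRNA host transcripts at -0.04 over 20 genes. The MAX and MLX network, the partners and antagonists of MYC, had a median of 0.05 over 13 genes, and MYC targets outside ribosome production 0.06 over 16 genes. On replicates 2 and 3 alone, 6 of the Pol III genes, 6 of the MYC targets, 5 of the snoRNA hosts, 3 of the exosome, 2 of the other snoRNP genes and 1 of the network genes were higher, against 9.72% of all genes tested. In the same fit 1 snoRNA host, 1 exosome gene and 2 other snoRNP genes were lower, against 10.9%. None of these genes passed with group alone in edgeR. At an unadjusted p under 0.05 the 9 lists together held 43 of 210 genes (20.5%, against 19.2% of all genes tested): 11 each in the small subunit and 60S lists, 5 snoRNA hosts, 4 each in the Pol I and exosome lists, 3 each in the Pol III and snoRNP lists, 2 MYC targets and 0 network genes.

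**Figure D5:**
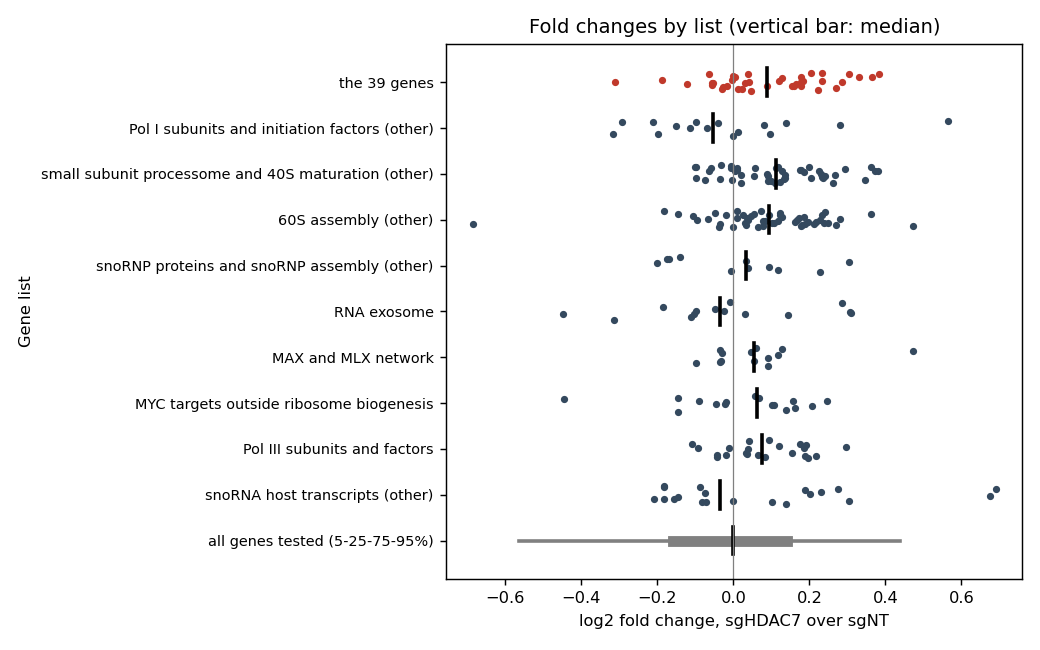
Log2 fold changes of the 39 genes (top) and of 9 lists of related genes (each point a gene, vertical bars the medians), with all genes tested at the bottom as grey bars from the 5th to the 95th and from the 25th to the 75th percentile. The medians of the 39 genes and of the other small subunit and 60S factors lie between 0.09 and 0.11, and that of all genes at 0.00.

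Compared per kilobase of annotated exon, the level of the 39 genes in sgNT ran from 2.68 CPM (UTP15) to 300 CPM (MYC). After MYC came NCL (257 CPM per kilobase), FBL (143), NPM1 (121, its own row alone) and NOLC1 (103). Pol I subunits lay low, with POLR1A at 15.8, POLR1B at 15.6, POLR1E at 9.84 and POLR1C at 8.32 CPM per kilobase. The exon length used joins all annotated transcripts of a gene, which lowers this value for genes with long or rare isoforms.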

How the data were processed

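The authors deposited 1 table of whole-number read counts per gene for all 6 libraries. Although labelled CPM, 100% of the values are whole and column totals differ, so no scaling was assumed. The submitters' processing notes name edgeR 3.32.1 and build hg38 but give them no role. For the aligner, the counter, the annotation and strand use, the sources used here give nothing. Columns named HDAC7 were matched by name and number, and columns named NC were taken as the only other group, sgNT. The table has 0 further value columns and 0 rows without a gene name.

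The 13841 of 16315 genes whose mean CPM reached 1 were tested with edgeR 4.0.16 (R 4.3.3), quasi-likelihood, two-sided, TMM scaling and group as the only term, with Benjamini-Hochberg adjustment over all of them and a threshold of 0.05. CPM values are TMM-scaled, errors of levels are SD of 3 libraries, and each SE is the absolute log2 fold change divided by the root of the F statistic. Added fits had a term for replicate 1, its interaction with the guide, or replicates 2 and 3 alone. limma 3.58.1 on log2(CPM + 0.5) and DESeq2 1.42.0 were alternatives. The fits were tested on simulated data. At this depth 3 counts in a library are 0.24 to 0.299 CPM, for counting error only. Positions, exons and pseudogene names are from GENCODE 29 (GRCh38), promoters from RefSeq (GRCh38.p14).

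The 39 members, the functional groups and the 9 pathway lists were chosen with earlier results of these data known. All members could be named, and from each list up to 3 that passed, taken by smallest adjusted p. Of 217 listed names, 7, of which some are older symbols, did not match a row and are not analysed here. Promoter stretches were shown for members with the motif outside chromosome 8.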

Additional observations from a re-analysis of the deposited data

How the results depend on the processing

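Among all genes tested, the count of 396 with group alone was 711 with DESeq2, 998 with the replicate number as a block, 1743 with the replicate 1 term and 2847 on replicates 2 and 3 alone. Leaving out single libraries gave 27 to 1588 genes. Among the 39 genes, the count of 1 was 3 with DESeq2 (UBTF and NOP56 higher, MYC lower), 0 with library totals alone, 5 with the replicate block, 8 with the replicate 1 term and 20 on replicates 2 and 3 alone. The shares of all genes called in these 5 fits were, in the same order, 5.45% (of genes with a DESeq2 adjusted p), 2.9%, 7.21%, 12.6% and 20.6%. Leaving out single libraries gave 0 to 11 of the 39 genes, with 11 only without sgNT replicate 1, against 0.195% to 11.5% of all genes. The cause was not tested. The 639 genes and 7 members with an interaction were 177 and 2 with DESeq2, and 659 to 872 and 8 to 9 without a library of replicates 2 or 3, fits with 1 residual degree of freedom. The 14 members whose groups did not overlap (35.9%, against 25.1% of all genes) were 31 on replicates 2 and 3 alone (79.5%, against 58.1% of all genes). With library totals alone they were 12, but the share of all genes was not computed for that scaling, so this count cannot be compared. HDAC7 kept its call in every fit listed here, and no member that passed in one of them had the opposite sign with group alone.

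Replicate numbers were not shown to pair the libraries. The correlation of same-numbered deviations from the group means was 0.30, 0.11 and 0.10 for replicates 1, 2 and 3, the last below 0.1 before rounding, and only replicate 1 correlated best with its own number. The replicate block raised the count of all genes as given above. Scaling moved the median log2 fold change of all genes by less than 0.1. UTP15 had the fewest counts, 152 in its lowest library, with a standard error of 0.14.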

Other observations

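The table also holds 3 rows of ribosomal RNA genes, RNA45SN1, RNA45SN2 and RNA45SN3, near-identical copies whose reads cannot be assigned to one of them. They were chosen after their values were seen. The libraries were made by poly-T capture, which is meant to leave ribosomal RNA out, so these counts do not measure Pol I output. Summed, they had 400, 419 and 421 counts (32.2, 36.2 and 34.1 CPM) in sgHDAC7 and 269, 379 and 301 counts (26.6, 34.1 and 28.6 CPM) in sgNT, and the groups overlapped. None passed the edgeR test with group alone (adjusted p = 0.364, 0.889 and 0.369 for RNA45SN1, RNA45SN2 and RNA45SN3) or with the replicate 1 term (adjusted p = 0.157, 0.848 and 0.275).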
